A study of Mus musculus with 13 samples.

Results

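The genes described here encode ligands and receptors of hepatocyte growth factor (HGF) and fibroblast growth factor (FGF) signaling that fibroblasts send and receive. The set held 9 genes of the 57010 gene identifiers in the tables, chosen by symbol (Hgf, Met, Fgf2, Fgf5, Fgf7, Fgf10, Fgf18, Fgfr1 and Fgfr2) and matched through the mouse annotation. All 9 had enough reads to be tested, among 15034 genes in all. The set and the pathway lists used below were chosen with earlier results of these data known.

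HGF is secreted by mesenchymal cells as an inactive precursor, is cleaved by serine proteases, and acts through a single receptor tyrosine kinase, MET. FGF ligands bind FGF receptors together with heparan sulfate, a sulfated polysaccharide of the cell surface and matrix. FGF7 and FGF10 are made by fibroblasts and act mainly on the epithelial splice form of FGFR2, FGF18 acts on several receptors in bone and lung, and FGF2 and FGF5 act on FGFR1. Both receptor families signal through the ERK kinases, which switch on genes such as Dusp6, Etv4 and Spry2, several of which damp the pathway.

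The RNA came from wild-type mouse embryonic fibroblasts (WT MEFs) numbered as mouse 4, 5 and 6, with the strain not given in the sources used here. Control MEFs received neither etoposide nor polysaccharide, and senescent MEFs were exposed to etoposide, a topoisomerase inhibitor, at 2 µM for 24 h and were then kept without it for 5 days. The sample titles abbreviate the agent as Eo in untreated senescent and Eto in Fucoidan-FV samples, and both were read as etoposide from the study's methods. FV100 and FV300 were senescent MEFs treated for 12 h with Fucoidan-FV, a sulfated sugar polymer extracted from the seaweed Fucus vesiculosus, at 100 or 300 µg/mL. Each of the 4 groups held 3 mice, and 2 control libraries of mouse 5 were summed to 1 sample.

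The 13 libraries held 22782536 to 31278750 expected counts. Fibroblast markers summed to 31800 to 53800 CPM per sample (CPM, counts scaled to the effective size of each library), and the 7 epithelial markers to at most 2.04 CPM. Endothelial markers, 4 of 5 tested, summed to 0.188 to 2.46 CPM in control, 1.47 to 2.38 in senescent, 6.1 to 11.3 in FV100 and 3.86 to 8.32 in FV300 samples. Of these, Tek was called higher at FV100 against senescent MEFs and at both doses against control, and no other was called. Cdh5 averaged 0.124 to 0.247 CPM in every group. Over the 4 tested, the median log2 change against senescent MEFs was 1.52 for FV100 and 0.88 for FV300. Against control these medians were 2.84 and 2.2. Macrophage markers summed to 0.564 to 4.04 CPM in control, 2.81 to 12.8 in senescent, 5.92 to 12.8 in FV100 and 3.26 to 10.1 in FV300 samples. Skeletal muscle markers summed to 104 to 196 CPM in control, 149 to 359 in senescent, 91.7 to 148 in FV100 and 67.8 to 119 in FV300 samples. Neural markers summed to 34.5 to 78.9 CPM in control, 36.8 to 47.6 in senescent, 66.1 to 93.9 in FV100 and 68.5 to 85.9 in FV300 samples, and of these Map2 rose at both doses against senescent MEFs. The other 3 tested neural markers were not called there, and the median log2 change over the 4 was 0.45 at FV100 and 0.57 at FV300. The part of the markers of all these lists in the results below was not tested. Libraries also differed in the level of 810 genes with nearly all exonic sequence in 1 annotated transcript. Their median difference from each gene's mean ran from −1.37 to 1.09 on the log2 scale. That spread appeared between the 2 libraries of control mouse 5 as well, at −1.04 and 0.89. A fit with an offset for each gene's share of such sequence was added as an alternative after seeing the data, and the calls it ended are named with the genes below.

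Hgf RNA was several fold above control in both Fucoidan-FV groups. Hgf (ENSMUSG00000028864, chr5:16758041-16828178, plus strand, GRCm39) was at 7.9, 6.07 and 1.97 CPM in control mice 4, 5 and 6, and at 10.1, 12.9 and 3.13 CPM in senescent MEFs of the same mice. It was at 26.6, 21.1 and 59.3 CPM in FV100 and at 36.4, 24 and 49.6 CPM in FV300. Every Fucoidan-FV sample lay above every senescent and control sample, while senescent and control samples overlapped. Mouse 6 had the lowest Hgf of its group without the polysaccharide and the highest with it.

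Against control, Hgf rose by 2.74 ± 0.60 (log2 fold change ± SE) at FV100 (adjusted p = 0.00451) and by 2.78 ± 0.60 at FV300 (adjusted p = 0.00452). Both calls were kept in all 16 alternative analyses. Against senescent MEFs, the difference was 2.03 ± 0.58 at FV100 and 2.07 ± 0.58 at FV300, with adjusted p = 0.0675 and 0.0944, so neither passed in the edgeR fit. DESeq2 gave adjusted p = 0.00392 and 0.00566 for the same differences, and the fit with mouse as a block gave 0.121 and 0.162. Senescent and control MEFs differed by 0.71 ± 0.57 (adjusted p = 0.498). A difference here is in the RNA of a whole culture, so fewer cells making a transcript and less of it per cell cannot be told apart.

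Fgf18 (ENSMUSG00000057967, chr11:33067014-33097828, minus strand) was the member with a call against senescent MEFs at both doses. It was at 0.595, 0.805 and 2.16 CPM in control mice 4, 5 and 6 and at 3.29, 2.07 and 1.73 CPM in senescent MEFs. It reached 6.89, 7.91 and 11.2 CPM in FV100 and 8.65, 9.25 and 12.3 CPM in FV300. The Fucoidan-FV samples did not overlap with the other groups.

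Against senescent MEFs, Fgf18 rose by 1.87 ± 0.49 at FV100 (adjusted p = 0.0496) and by 2.08 ± 0.49 at FV300 (adjusted p = 0.0488). Both calls stood at the threshold. With mouse as a block the adjusted p was 0.0742 and 0.0765, and leaving out any 1 of the 6 samples ended the FV300 call (adjusted p = 0.0528 to 0.205). At FV100, leaving out any sample but senescent mouse 4 ended it (adjusted p = 0.108 to 0.143). With the offset for single-transcript share the adjusted p was 0.217 and 0.306. Against control, Fgf18 rose by 2.88 ± 0.51 (adjusted p = 0.00119) and 3.1 ± 0.52 (adjusted p = 8.31e-04), and these calls were kept in all 16 alternatives. The 2 libraries of control mouse 5 held 35 and 6 expected counts of Fgf18, the lower in the library with the higher level of single-transcript genes.

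**Figure D1:**
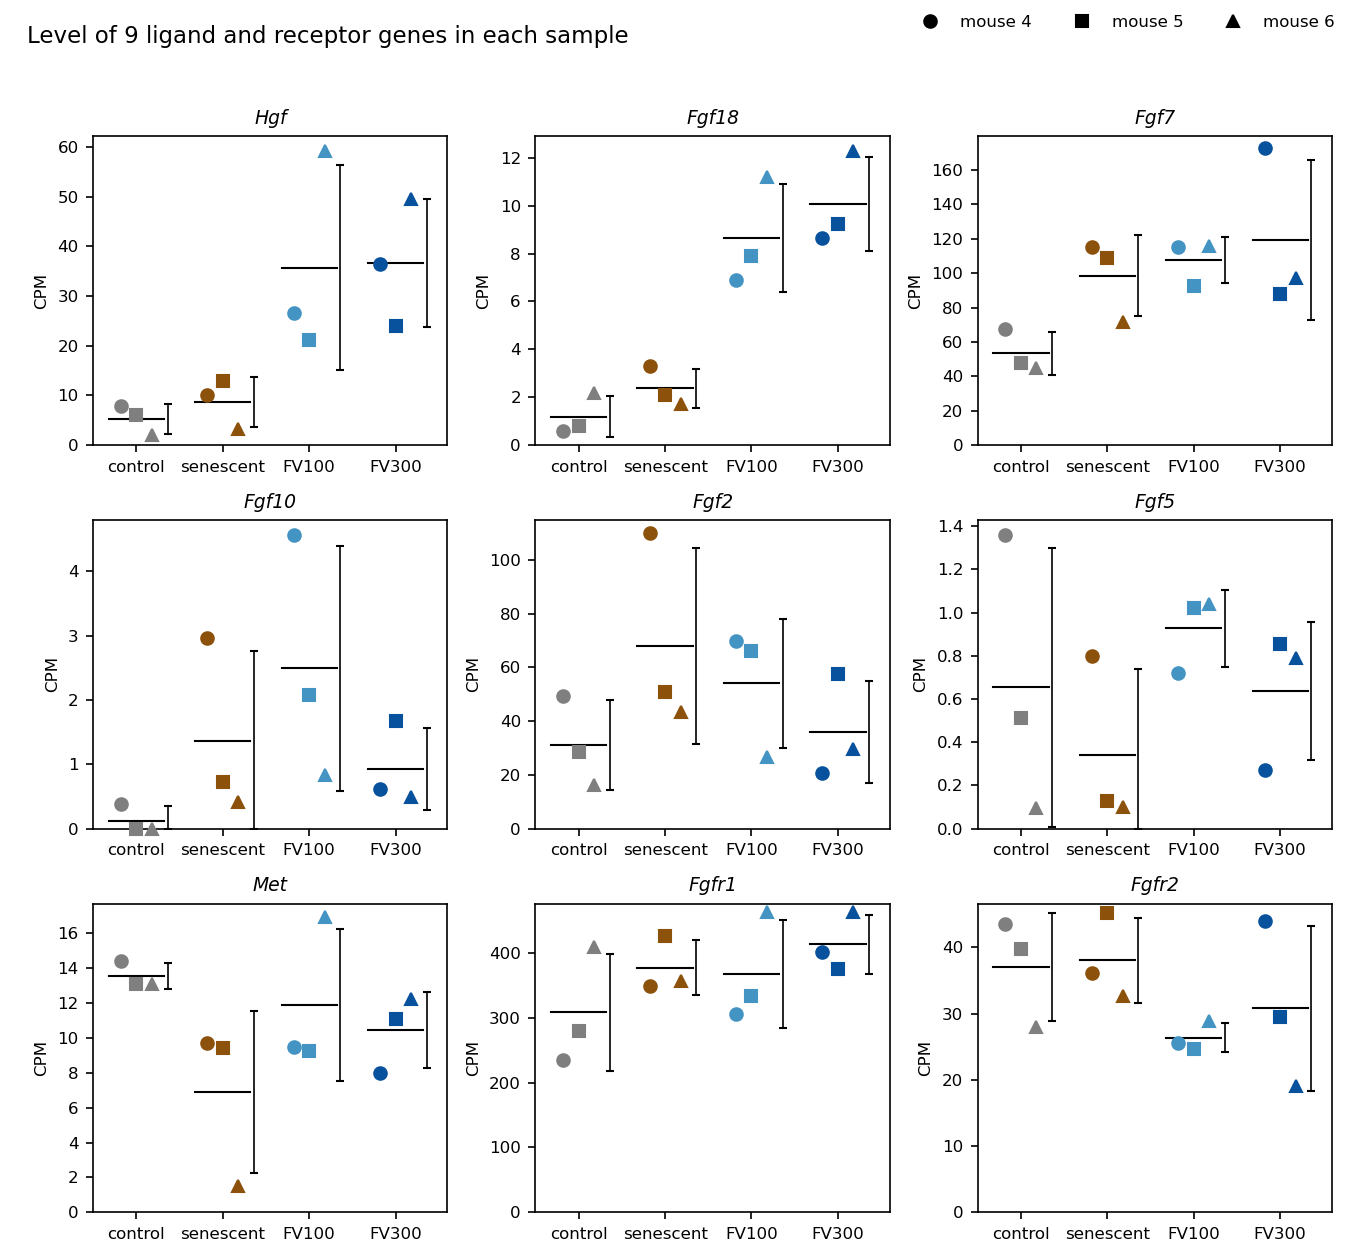
Level of each of the 9 genes in CPM (linear axes from 0), for control, senescent, FV100 and FV300 samples, with a symbol per mouse, a line at the mean and a bar of 1 SD beside it, cut at 0. Hgf and Fgf18 lie higher in all 6 Fucoidan-FV samples than in the other 6, while the groups overlap for Fgfr1.

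The start regions of these 2 genes differ in composition. RefSeq windows from 250 bases before to 50 after the annotated start were found for 8 of the 9 members, all but Fgfr1. Their build, GRCm38.p6, is not the GRCm39 of the count tables. The windows below are shown because Hgf and Fgf18 were high in the same 6 samples, and capitals mark CG dinucleotides.

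Hgf, first start, chr5:16553245-16553544, plus strand: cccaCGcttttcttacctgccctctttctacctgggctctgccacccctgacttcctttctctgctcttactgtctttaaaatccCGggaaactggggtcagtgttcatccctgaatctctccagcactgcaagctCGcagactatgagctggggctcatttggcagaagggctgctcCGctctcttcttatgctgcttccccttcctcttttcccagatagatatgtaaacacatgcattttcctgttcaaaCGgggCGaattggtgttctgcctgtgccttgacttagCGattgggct
Hgf, second start, chr5:16553651-16553950, plus strand: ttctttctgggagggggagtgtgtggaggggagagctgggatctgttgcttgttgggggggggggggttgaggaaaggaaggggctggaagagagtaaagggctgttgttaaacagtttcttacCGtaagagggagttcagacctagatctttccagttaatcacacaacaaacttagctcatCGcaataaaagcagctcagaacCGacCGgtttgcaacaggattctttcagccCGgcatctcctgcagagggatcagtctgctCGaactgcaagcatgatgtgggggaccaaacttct
Fgf18, chr11:33147351-33147650, minus strand: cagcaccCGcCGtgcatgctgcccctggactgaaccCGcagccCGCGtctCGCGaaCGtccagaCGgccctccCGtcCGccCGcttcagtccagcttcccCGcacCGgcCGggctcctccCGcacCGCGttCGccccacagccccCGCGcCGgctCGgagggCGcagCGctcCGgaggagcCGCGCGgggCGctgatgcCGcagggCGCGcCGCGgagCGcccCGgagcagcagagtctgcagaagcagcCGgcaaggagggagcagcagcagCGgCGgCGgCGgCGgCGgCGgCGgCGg

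The Hgf windows held 7 and 6 CG dinucleotides and the Fgf18 window 47, against a median of 7 over 32851 windows. Fewer CG were counted in 98.6% of all windows than in that of Fgf18. Both strands were searched for the AP-1 motif TGANTCA, the ETS motif CCGGAAG and the TATA box TATAAA. None of the 3 occurred in these Hgf or Fgf18 windows, and they occurred in 7.81%, 8.86% and 13.6% of all windows. Of the other members, Met held the AP-1 letters and Fgf5 the TATA box.

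Fgf7 was the most abundant of the 6 ligands by level scaled to transcript length (TPM) in every group. Fgf7 (ENSMUSG00000027208, chr2:125876578-125934218, plus strand), also called keratinocyte growth factor, was at 67.4, 47.5 and 44.9 CPM in control mice 4, 5 and 6. It was at 115, 109 and 71.5 CPM in senescent MEFs, 115, 92.3 and 116 CPM in FV100 and 173, 88 and 97 CPM in FV300. Every control sample lay below every sample of the other groups, which overlapped with each other.

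Fgf7 rose against control by 1.02 ± 0.28 at FV100 (adjusted p = 0.0157) and by 1.16 ± 0.28 at FV300 (adjusted p = 0.00826). In senescent MEFs it was higher by 0.89 ± 0.28 (adjusted p = 0.0557), under the fold threshold. Against senescent MEFs the Fucoidan-FV groups differed by 0.13 ± 0.28 and 0.28 ± 0.28 (adjusted p = 0.84 and 0.712). The calls against control lay close to the fold threshold. Without FV100 mouse 4 or mouse 6 the difference was 0.97 (adjusted p = 0.0536) or 0.96, and without FV300 mouse 4 it was 0.79. With library 5(1) alone for control mouse 5, the FV100 difference was 0.94. The offset ended both calls, with differences of 1.23 and 1.26 (adjusted p = 0.0754 and 0.063).

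Fgf10 (ENSMUSG00000021732, chr13:118806327-118928672, plus strand), a mesenchymal ligand of branching epithelia, was close to absent in control MEFs. Its counts were 9, 0 and 0 in control mice 4, 5 and 6, 93, 17 and 12 in senescent MEFs, 146, 55 and 24 in FV100 and 16, 47 and 12 in FV300. Mouse 4 had the highest count in control, senescent and FV100 samples, and no control sample reached the lowest sample of another group.

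Fgf10 rose against control by 4.35 ± 1.42 at FV100 (adjusted p = 0.0348). The difference was 2.93 ± 1.37 at FV300 (adjusted p = 0.135) and 3.49 ± 1.39 in senescent MEFs (adjusted p = 0.124). Leaving out control mouse 5, control mouse 6, FV100 mouse 4 or FV100 mouse 5 ended the FV100 call, with adjusted p = 0.0885, 0.0802, 0.13 and 0.0674. With mouse as a block the FV300 difference was 3.99 and passed (adjusted p = 0.0461). Of its exonic bases, 89.5% lie in a single transcript. The 810 single-transcript genes, which do not include Fgf10, were at their highest level in FV100 mice 5 and 4, at 1.09 and 0.97. With the offset for single-transcript share, with or without the block, the FV100 call was kept. It was also lost with the 2 groups alone. In senescent against control MEFs, the offset added a call of Fgf10, with or without the block.

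Fgf2 (ENSMUSG00000037225, chr3:37402473-37464257, plus strand), a mitogen of fibroblasts, was at 49.3, 28.4 and 16.2 CPM in control mice 4, 5 and 6 and 110, 50.9 and 43.3 CPM in senescent MEFs. It was at 69.7, 66.1 and 26.5 CPM in FV100 and 20.9, 57.4 and 29.8 CPM in FV300. All groups overlapped. Senescent MEFs differed from control by 1.12 ± 0.51 (adjusted p = 0.187), and FV100 and FV300 from senescent MEFs by −0.33 ± 0.50 and −0.91 ± 0.51 (adjusted p = 0.777 and 0.43).

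Fgf5 (ENSMUSG00000029337, chr5:98401780-98452320, plus strand), which ends hair growth, had few reads in every sample. Over all samples its counts ran from 2 to 32, with 32, 26 and 2 in control mice 4, 5 and 6 and 25, 3 and 3 in senescent MEFs. They were 23, 27 and 30 in FV100 and 7, 24 and 19 in FV300. No comparison passed the test, and its largest difference was 1.41 ± 1.05, at FV100 against senescent MEFs (adjusted p = 0.501). At this depth a rise of Fgf5 by 1 on the log2 scale was within the 95% interval of every comparison.

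Fgf2 and Fgf5 have 78.2% and 78.3% of their exonic bases in a single transcript. The 2 libraries of control mouse 5, at −1.04 and 0.89 on that measure, held 452 and 997 expected counts of Fgf2 and 5 and 21 of Fgf5. Hgf held 170 and 139 in the same libraries, with 17.4% of its bases in 1 transcript. Fgf2 also shares 45.3% of its exonic bases with Nudt6 on the opposite strand. Whether the counting used strand is not given in the sources used here, so reads of the 2 genes may not be told apart.

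**Figure D2:**
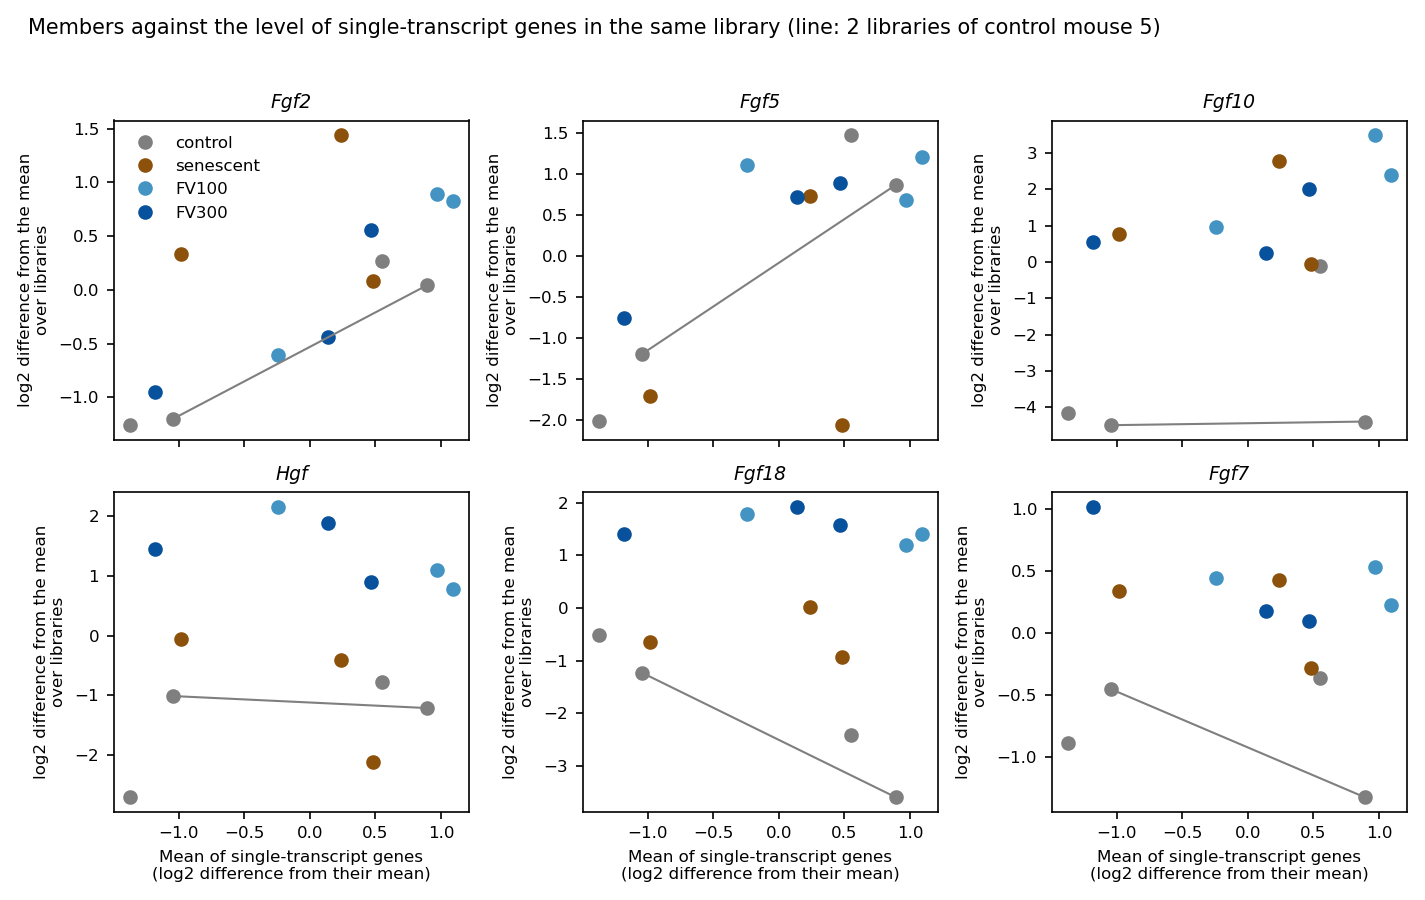
Each panel sets a gene's log2 difference from its mean over the 13 libraries (vertical axis) against that of 810 single-transcript genes. For these the median difference in the same library is shown (horizontal axis, labeled as a mean). Points are colored by group, with a line joining the 2 libraries of control mouse 5. Between those libraries Fgf2 and Fgf5 went up with the measure and Fgf18 and Fgf7 went down.

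The receptors showed no call in any comparison in edgeR or DESeq2, and the 95% intervals of all their differences included 0. Met (ENSMUSG00000009376, chr6:17463749-17573979, plus strand), the HGF receptor, was at 14.4, 13.1 and 13.1 CPM in control mice 4, 5 and 6 and 9.71, 9.44 and 1.53 CPM in senescent MEFs. It was at 9.45, 9.24 and 16.9 CPM in FV100 and 7.99, 11.1 and 12.2 CPM in FV300. All senescent samples lay below all control samples, with mouse 6 far below the other two.

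Senescent MEFs differed from control in Met by −0.97 ± 0.52 (adjusted p = 0.268). The differences from senescent MEFs were 0.78 ± 0.52 at FV100 and 0.60 ± 0.52 at FV300 (adjusted p = 0.44 and 0.661). The 95% intervals of these 2 differences ran from −0.33 to 1.89 and from −0.52 to 1.71. In mouse 6, Met and Hgf were both lowest in the senescent sample among its etoposide-treated samples.

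Fgfr1 (ENSMUSG00000031565, chr8:26003670-26066824, plus strand), the main FGF receptor of mesenchymal cells, had the highest level of the set. It was at 235 to 409 CPM in control, 348 to 426 in senescent, 306 to 462 in FV100 and 375 to 463 in FV300 samples. In CPM all groups overlapped, and the differences between groups ran from −0.04 ± 0.22 to 0.42 ± 0.22. In TPM, which was not tested, it was at 84.2 to 137 in control, 117 to 155 in senescent, 161 to 213 in FV100 and 157 to 203 in FV300 samples, so that on this scale the Fucoidan-FV samples lay above all others.

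Fgfr2 (ENSMUSG00000030849, chr7:129763471-132725079, minus strand) was at 43.5, 39.7 and 27.9 CPM in control mice 4, 5 and 6 and 36.1, 45.2 and 32.7 CPM in senescent MEFs. It was at 25.6, 24.6 and 28.8 CPM in FV100 and 43.9, 29.4 and 19 CPM in FV300. The FV100 samples lay below all senescent samples, by 0.53 on the log2 scale (a difference of −0.53 ± 0.29, adjusted p = 0.34). Gene counts do not separate the epithelial and mesenchymal splice forms of Fgfr2.

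**Figure D3:**
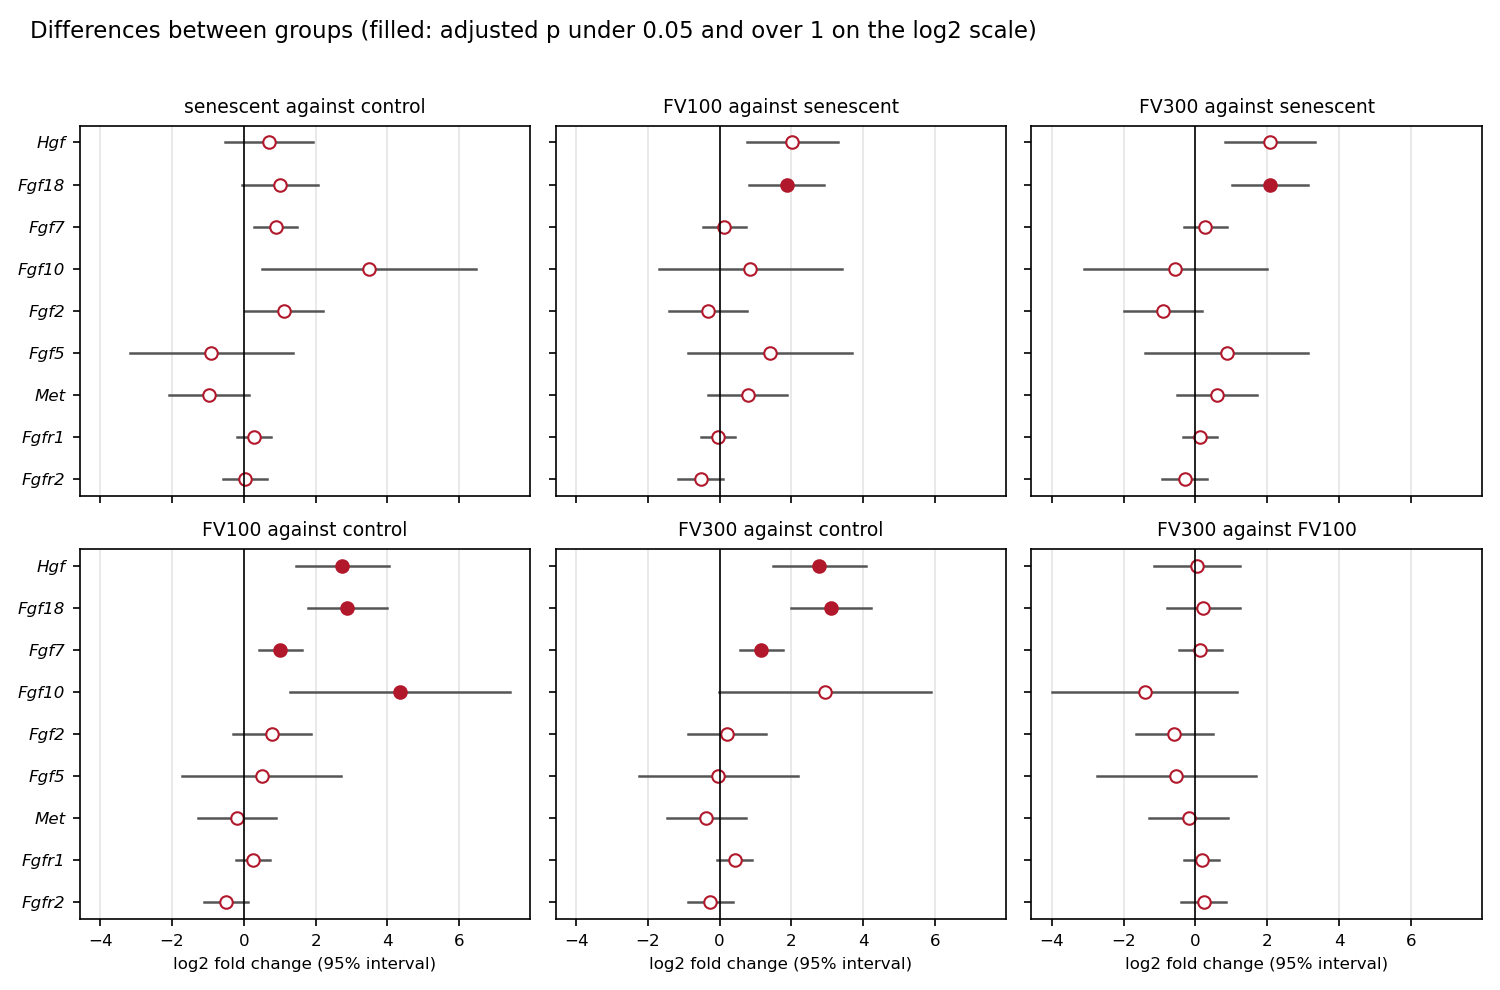
Log2 fold change of each gene (point) with its 95% interval (line) in the 6 comparisons, filled where the adjusted p was under 0.05 and the change over 1. Filled points are ligands in every panel that has one, and the FV300 against FV100 panel has none.

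Across the set, the calls were few and in 1 direction. In senescent against control MEFs, 0 of 9 members passed in the edgeR fit, against 4.47% of all tested genes called higher and 3.95% called lower. Unadjusted p was under 0.05 for 3 members, and DESeq2 called 1. At FV100 against senescent MEFs, 1 of 9 was called higher and none lower, against 1.1% and 1.6% of all genes. At FV300 it was again 1 of 9, against 0.752% higher and 0.885% lower.

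Against control, 4 of 9 members were called higher at FV100, where 10.3% of all genes were called higher and 9.37% lower. At FV300, 3 of 9 were called higher, against 9.87% higher and 8.11% lower. The members' median log2 fold change was 0.71 in senescent MEFs against control, 0.78 and 0.28 at FV100 and FV300 against senescent MEFs, and 0.79 and 0.42 against control. The medians over all tested genes were 0.07, −0.02, 0, 0.09 and 0.07 in the same order. The comparisons share the senescent or the control samples, so these values are not independent of each other.

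The doses gave no call among the members. In FV300 against FV100, 0 of 9 passed in edgeR, with 0 at an unadjusted p under 0.05 and 0 in DESeq2, against 0% of all genes called higher and 0.00665% called lower. Hgf differed by 0.04 between doses (95% interval −1.16 to 1.25) and Fgf18 by 0.21 (−0.80 to 1.23). The interval was narrowest for Fgfr1, from −0.31 to 0.65, and widest for Fgf10, from −4 to 1.16.

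Per length, the order of the set changed between groups. In control MEFs, Fgfr1 was highest at 105 ± 27.9 TPM (SD, n = 3), then Fgf7 at 37.6 ± 12, Fgfr2 at 16.4 ± 3.3, Fgf2 at 11.3 ± 5.45, Met at 3.93 ± 0.29, Hgf at 2.92 ± 1.52 and Fgf18 at 1.85 ± 1.33. Fgf5 was at 0.75 ± 0.799 TPM and Fgf10 at 0.0433 ± 0.0751 TPM. Fgfr2 and Fgf2 overlapped, as did each neighbor from Met down.

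In FV300, Hgf stood at 23.8 ± 7.74 TPM and Fgf18 at 20.8 ± 4.2 TPM, next behind Fgfr1 at 182 ± 23 and Fgf7 at 107 ± 32.7. They overlapped with each other, and Fgf18 with Fgfr2 at 16.9 ± 3.07 TPM. In FV100 Hgf was at 24.8 ± 11.4 TPM and Fgf18 at 19.4 ± 3.12 TPM, and in senescent MEFs at 4.73 ± 2.88 and 4.06 ± 2.01 TPM. Met, at 2.08 ± 1.58 TPM in senescent MEFs, was at 4.6 ± 1.82 TPM in FV300. Fgf7 at FV100, at 107 to 135 TPM, lay above the senescent samples at 40 to 96.5 TPM, which in CPM it overlapped, while Fgfr2 at FV100, at 14.7 to 17.9 TPM, overlapped with the senescent samples at 15.4 to 25.8 TPM.

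**Figure D4:**
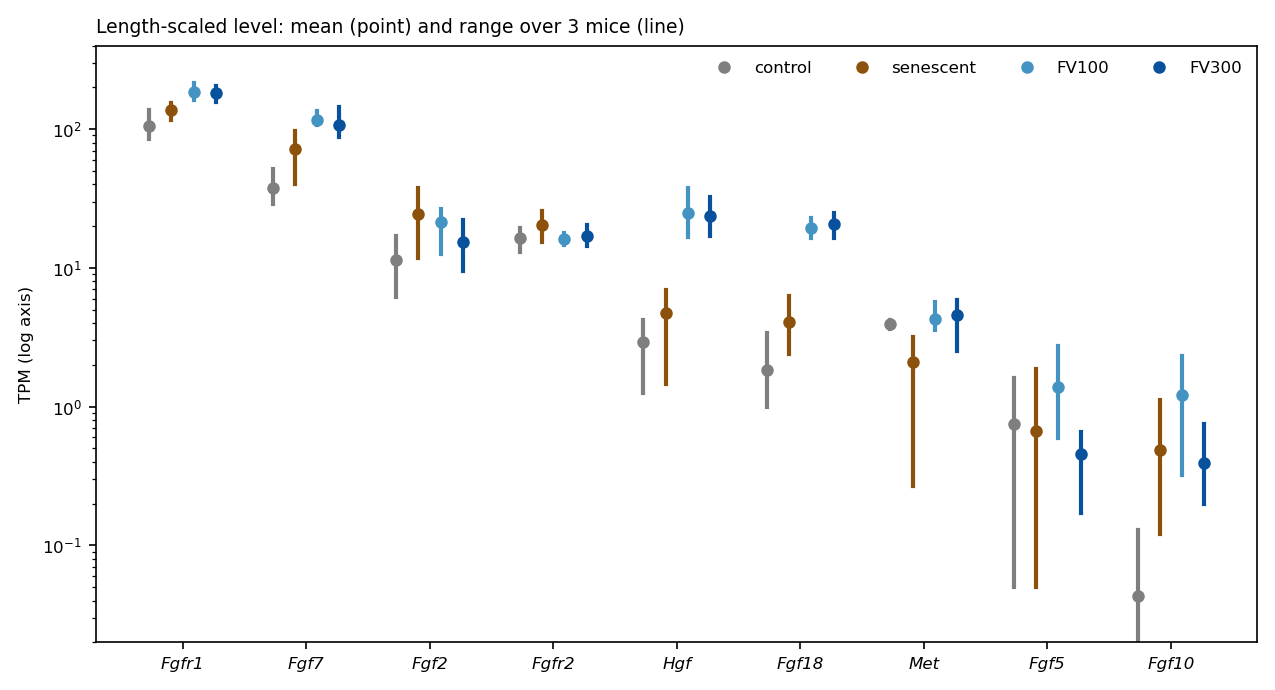
Length-scaled level (TPM, log axis) of the 9 genes in each group, as the mean over 3 mice (point) and the range (line), cut at the lower edge where a sample was at 0. Fgfr1 and Fgf7 are highest in all 4 groups, and Hgf and Fgf18 overlap with Fgf2 in both Fucoidan-FV groups.

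Several genes listed as feedback inhibitors or targets of FGF-ERK signaling fell with Fucoidan-FV. The activity of the receptors and of ERK was not measured in these RNA data, so a link of the fall to either was not tested. Of 17 tested feedback inhibitors and FGF-ERK target genes, edgeR called 5 lower at FV100 and 5 at FV300 against senescent MEFs and 0 higher, against 1.6% and 0.885% of all genes called lower. DESeq2 called 6 at each dose, 1 of them higher. They were Dusp5, Dusp6, Etv4, Fosl1 and Phlda1 at both doses. The median over the 17 was −0.85 and −0.71. The list was chosen with earlier results of these data known, so its share of calls is a description. Against control the same 5 were called lower at FV100 and FV300, against 9.37% and 8.11% of all genes. In the other direction 1 was called higher at both doses, against 10.3% and 9.87% of all genes. That was Il17rd, a feedback inhibitor of FGF receptors, at 1.74 to 6.12 CPM in control, 4.42 to 9.97 in senescent, 13.7 to 24 in FV100 and 14 to 20 in FV300 samples. It rose by 2.08 ± 0.45 (adjusted p = 0.00409) and 2.01 ± 0.45 (adjusted p = 0.00544), calls that the offset ended. In senescent against control MEFs edgeR called 0 of them, with 1 at an unadjusted p under 0.05 and 0 in DESeq2.

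Dusp6, a phosphatase of ERK, was at 54.7, 64.1 and 62.2 CPM in senescent mice 4, 5 and 6, at 11.4, 8.33 and 11.9 CPM in FV100 and at 11.4, 9.78 and 12.3 CPM in FV300. Etv4, an ETS factor induced by FGF signaling, was at 33.3, 38.8 and 43.4 CPM in senescent MEFs, at 4.7, 4.96 and 2.39 CPM in FV100 and at 6.9, 4.77 and 4.89 CPM in FV300. The Fucoidan-FV samples did not overlap with the senescent ones for either gene.

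Dusp6 fell by 2.52 ± 0.24 (adjusted p = 3.57e-04) and 2.43 ± 0.24 (adjusted p = 8.65e-04). Etv4 showed −3.26 ± 0.30 (adjusted p = 2.37e-04) and −2.80 ± 0.29 (adjusted p = 8.65e-04). Both genes kept their calls in all 13 alternatives at each dose. Fosl1, an AP-1 subunit, showed −3.20 ± 0.56 and −3.84 ± 0.58 (adjusted p = 0.00859 and 0.00635). Dusp5, another ERK phosphatase, showed −3.17 ± 0.64 and −3.54 ± 0.66, with all its exonic sequence in 1 transcript, and its FV100 call was lost with mouse as a block (adjusted p = 0.0507). The sprouty genes Spry1, Spry2 and Spry4, which inhibit receptor signaling, showed 0.06, 0.75 and 0.40 at FV100 with no call.

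**Figure D5:**
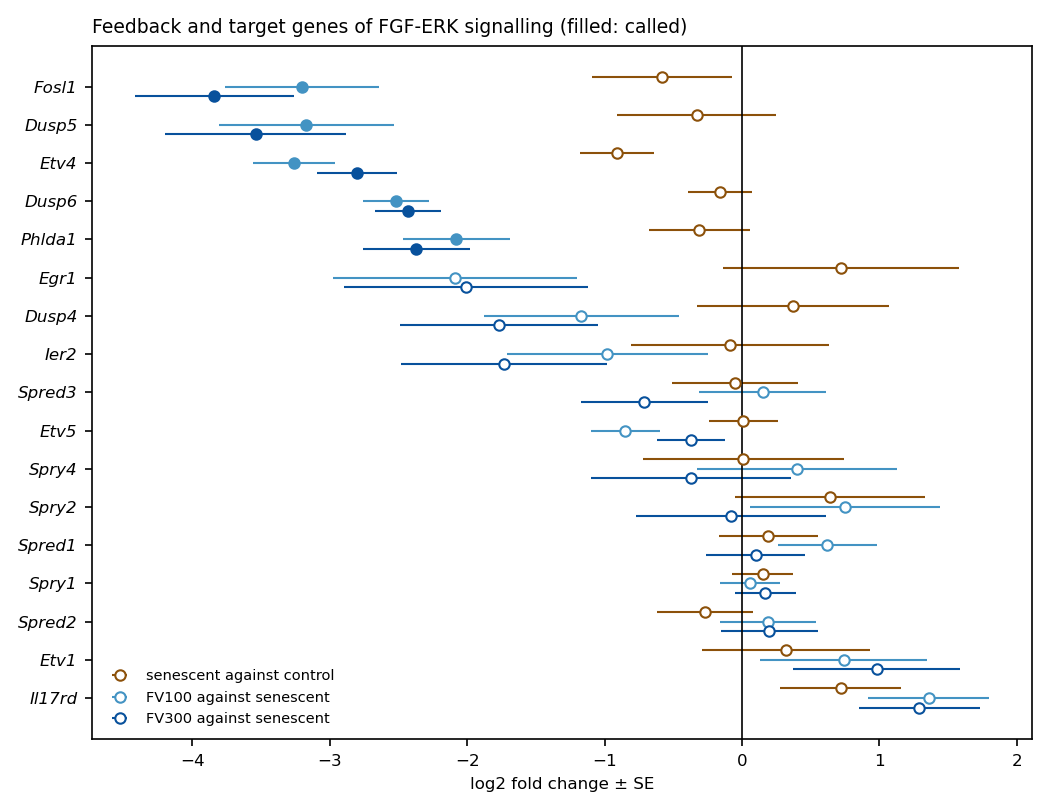
Log2 fold change ± SE of the 17 tested feedback and target genes, for senescent against control and for each dose against senescent MEFs, filled where called. The 5 filled genes lie between −2.08 and −3.84 at both doses, and no senescent against control point is filled.

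Against senescent MEFs, partners of MET and carriers of FGF gave few calls. Cd44, a hyaluronan receptor whose splice forms present HGF to MET, was at 709 to 1200 CPM in senescent, 315 to 392 in FV100 and 295 to 576 in FV300 samples. It fell by 1.51 ± 0.26 (adjusted p = 0.00792) and 1.22 ± 0.26 (adjusted p = 0.0286), and the offset ended both calls. It was 1 of 15 tested HGF-like ligands, receptors and MET partners to fall at each dose, against 1.6% and 0.885% of all genes. Dcn, a proteoglycan of the matrix that binds MET, was the 1 that rose at FV100, against 1.1% of all genes, by 2.33 ± 0.60 (adjusted p = 0.0477, or 0.0869 with mouse as a block), and leaving out any 1 of the 6 samples ended the call. It is also among the fibroblast markers. DESeq2 called 3 of the 15 at each dose.

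Against control, 4 of these 15 rose and 2 fell at FV100, against 10.3% and 9.37% of all genes, and 4 rose and 3 fell at FV300, against 9.87% and 8.11%. Dcn rose by 6.28 ± 0.74 (adjusted p = 6.21e-05) and 6.18 ± 0.73, and was also the 1 called in senescent MEFs, by 3.95 ± 0.68 (adjusted p = 0.00215). Itga6, an integrin subunit, showed −1.98 ± 0.44 and −2.08 ± 0.44 (adjusted p = 0.00499 and 0.00409). The calls of Dcn and Itga6 against control were kept in all 16 alternatives. Every other gene of this list called against control lost its call in some of them. That of Mst1r was kept in 6 of 16 at FV100 and 5 of 16 at FV300.

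Among 19 tested FGF binding and heparan sulfate genes, Gpc3 was the 1 called against senescent MEFs, where 1.1% and 0.752% of all genes were called higher at FV100 and FV300. Gpc3, a cell surface heparan sulfate proteoglycan, was at 7.35, 1.51 and 5.67 CPM in senescent mice 4, 5 and 6, 22.9, 21.5 and 34.7 CPM in FV100 and 12.8, 20.8 and 34.9 CPM in FV300. It rose by 2.44 ± 0.51 (adjusted p = 0.0199) and 2.23 ± 0.51 (adjusted p = 0.0397), the latter lost with mouse as a block (adjusted p = 0.065) and both with the offset. Sulf2, which removes sulfate groups from heparan sulfate, was the 1 called in senescent against control MEFs, against 4.47% of all genes called higher. It rose by 1.64 ± 0.22 (adjusted p = 4.58e-04), from 90.8 to 106 CPM in control to 244 to 351 CPM in senescent samples, a call that the offset ended. Against control, 4 of the 19 rose at FV100 and 3 at FV300, against 10.3% and 9.87% of all genes. Sulf2 was among them at both doses, by 2.18 ± 0.23 and 2.37 ± 0.23, and kept these calls in all 16 alternatives. The calls of Gpc3 at FV100 and Gpc6 at FV300 were each kept in 6 of 16, and leaving out any 1 of the 6 samples ended them. Gpc4 at FV100 kept 10 of 16, and Sulf1 kept 12 at FV100 and 13 at FV300.

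Of the 5 tested genes for HGF activation and its inhibitors, 2 rose in senescent against control MEFs, against 4.47% of all genes. They were Spint2, an inhibitor of HGF-activating proteases, by 1.72 ± 0.36 (adjusted p = 0.00725), and Hpn, a protease that cleaves HGF, at 0.0262 and 0.56 CPM on average. The offset ended both calls, and Hpn was lost with mouse as a block (adjusted p = 0.0673). None of the 5 was called by edgeR or DESeq2 at either dose against senescent MEFs, with 2 and 1 at an unadjusted p under 0.05. Against control, 4 rose at FV100 (St14, Hpn, Plat and Spint2) and 2 at FV300 (Hpn and Spint2), against 10.3% and 9.87% of all genes. Counts in control mice 4, 5 and 6 were 1, 1 and 33 for St14 and 0, 4 and 0 for Hpn. Control samples alone did not give St14 or Hpn enough reads to be tested. The shares of this list called against control, also in senescent MEFs, are therefore not comparable with those of all genes. Spint2 rose by 2.09 ± 0.36 and 2.36 ± 0.37 (adjusted p = 0.00103 and 5.06e-04) and kept these calls in all 16 alternatives. At FV100, the offset ended the Plat call, leaving out control or FV100 mouse 4 or 5 ended that of St14, and leaving out FV100 mouse 5 ended that of Hpn.

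Of 13 other FGF ligands, 3 had enough reads to be tested and none was called against senescent MEFs by edgeR or DESeq2, with 0 at an unadjusted p under 0.05. Fgf1 and Fgf9 rose against control by 3.99 ± 1.02 and 2.76 ± 0.80 at FV100 (adjusted p = 0.0106 and 0.0212) and by 3.86 ± 1.01 and 2.77 ± 0.80 at FV300 (adjusted p = 0.0132 and 0.0221). They were 2 of the 3 tested, against 10.3% of all genes called higher at FV100 and 9.87% at FV300. Counts in control mice 4, 5 and 6 were 1, 20 and 0 for Fgf1 and 2, 14 and 16 for Fgf9. Control samples alone did not give these 2 genes enough reads to be tested, so their share is not comparable with that of all genes. Their highest group means were 2.69 and 2.51 CPM. Among the 4 intracellular FGFs, which are not secreted, Fgf14 held 0 counts in control, 285 in FV100 and 276 in FV300 samples. Its counts in senescent mice 4, 5 and 6 were 57, 0 and 0, so that without mouse 4 it was not detected there. With a floor of 3 counts over the control group, it was at least 104-fold higher at FV100 and at least 113-fold higher at FV300. Of 25 adaptors and transducers, 1 was called higher at FV100 against senescent MEFs, against 1.1% of all genes. It was Braf (1.27 ± 0.30, adjusted p = 0.0338, lost with the offset). None was called at FV300, where DESeq2 called 1 and 5 had an unadjusted p under 0.05.

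The genes whose pattern over the 12 samples was most like a member's were ranked by Pearson correlation of log2 CPM, as a description. Closest to Fgf18 were Igf1 (r = 0.982), Cd200 (0.98) and Casp12 (0.978), and closest to Hgf were Arhgap20 (0.975), Dab2 (0.973) and Septin8 (0.969). Fgf7 was closest to Ly6a (0.963) and Met to Zmiz1 (0.962). Closest to Fgf2 was Nptx1 (0.93), to Fgf5 Ankrd26 (0.948), to Fgf10 Gm11816 (0.96), to Fgfr1 Fbxw7 (0.955) and to Fgfr2 Gm8783 (0.919). Nptx1, Ankrd26 and Gm8783 have 89.4% to 100% of their exonic bases in a single transcript. The other genes named here have 4.91% to 43.5%, with Gm11816 at 18%. The 12 samples share mice, groups and library measures.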

How the data were processed

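Total RNA was extracted with Trizol from WT MEFs, libraries were made with a stranded total RNA kit, and reads were processed per the labels and the study's methods with FastQC 0.12.1, Trimmomatic, STAR 2.7.11b and RSEM 1.3.1 on GRCm39. The authors deposited expected counts, TPM and FPKM per gene and library from RSEM, plus a table of expected counts that equals the per-library files (largest difference 0). TPM is scaled for length by the authors, and FPKM was not used here. Of 57010 gene identifiers, 56310 matched the GENCODE M39 annotation used for symbols and coordinates.

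Expected counts were rounded, the libraries 5(1) and 5(2) of control mouse 5 were summed, and the filterByExpr rule of edgeR, set to a count of 10 in a group and 15 in total, left 15034 genes. Groups were compared with edgeR 4.0.16 (R 4.3.3) by the quasi-likelihood test with TMM factors in 1 fit of 4 groups, with Benjamini-Hochberg adjustment over all genes tested. A call needed a change of over 1 on the log2 scale, in either direction, with the adjusted p below 0.05. Intervals cover 95%. The p-values rest on a spread estimated from 3 mice a group over all 4 groups together, with samples of the same mouse number entered as independent. They refer to these cultures alone. DESeq2 1.42.0, RLE factors, no filter, 2 groups alone, mouse as a block and leaving out each sample were alternatives. The labels number the mice, and samples of the same number were read as coming from the same animal. Over 18 pairs of same-numbered samples the correlation of deviations from group means had a median of −0.0063 (−0.2 to 0.43).

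For 810 genes with over 95% of exonic bases in 1 transcript, the median log2 difference from each gene's mean was taken per library. An offset for this share was added as an alternative after seeing the data. The members and gene lists were chosen with earlier results of these data known. Named were all members, of each pathway list at most the 4 called genes with the largest change in a comparison, and the 3 genes most correlated with each member, of which the closest is given for most. Values of Spry1, Spry2 and Spry4 and of the markers Tek, Cdh5 and Map2 are outside this rule and were chosen after they were seen.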

Additional observations from a re-analysis of the deposited data

How the results depend on the processing

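The rise of Hgf and Fgf18 against control held in 16 of 16 alternatives at each dose, and the falls of Dusp6 and Etv4 against senescent MEFs in 13 of 13. Calls among the members against senescent MEFs did not hold. At FV100 their number was 0 with RLE factors, with the 2 groups alone, with mouse as a replicate block and with the offset for single-transcript share, 2 (Hgf and Fgf18) with DESeq2 or no filter, and 1 (Hgf, not Fgf18) with the offset and block. At FV300 it was 0 with RLE factors, the 2 groups alone, the block, the offset and the offset with the block, and 2 with DESeq2 or no filter. In senescent against control MEFs it was 1 with DESeq2, the offset, or the offset with the block (Fgf10 each time), and 2 with no filter (Fgf2 and Fgf10). Leaving out 1 sample gave 0 to 2 member calls in senescent against control, 0 to 1 at FV100 against senescent, 0 at FV300 against senescent and 2 to 4 at FV100 against control. In senescent against control, Fgf7 and Fgf10 were called without control mouse 4, Fgf18 without control mouse 6 (adjusted p = 0.0196) and Fgf7 without senescent mouse 6.

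Over all genes, 1266 were called in senescent against control, and 699 with the 2 groups alone, 639 with the offset and 597 with the offset and block. At FV100 against senescent, 405 became 770 with DESeq2, 800 with no filter, 168 with the 2 groups alone, 110 with the offset, 159 with the offset and block and 136 to 365 without 1 sample. At FV300, 246 became 606, 580, 101, 95, 122 and 46 to 220 in the same order. FV300 against FV100 gave 1 call, and 2 with no filter and 0 with the 2 groups alone, with the block or without 1 sample. Against control, 2955 at FV100 became 1622 with the offset and 1557 with the offset and block, and 2704 at FV300 became 1712 with the offset and block. Of the feedback and target genes, 2 were called at FV100 with the 2 groups alone, and 3 to 5 without 1 sample at either dose.

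Sign changed for differences that were not called. In senescent against control, Fgfr2 was −0.1 with control library 5(1) alone, −0.22 with the offset, 0 with the offset and block and −0.12 to 0.16 without 1 sample, where Fgf5 ran from −2.47 to 0.17. At FV100 against senescent, Fgfr1 was 0.05 with RLE factors, DESeq2 or the 2 groups alone, 0.04 with no filter and −0.24 to 0.19 without 1 sample, and Fgf2 ran from −0.55 to 0.42. At FV300, Fgf10 was 0.14 with the block and −1.29 to 0.82 without 1 sample, and Fgf7 ran from −0.09 to 0.47. Between doses, Hgf was −0.02 with RLE factors or DESeq2, 0 with no filter, −0.01 with the 2 groups alone, −0.11 with the offset with or without the block and −0.24 to 0.62 without 1 sample. There Fgf18 was −0.05 with the offset and Fgfr2 −0.03 with the offset and block, while Met ran from −0.34 to 0.16, Fgf7 from −0.22 to 0.33 and Fgfr2 from −0.12 to 0.48. In FV300 against control, Fgf5 was 0.01 with RLE factors or DESeq2, 0.5 with the block, 0.02 and 0.23 with the control libraries separate and with 5(1) alone, 0.27 with the offset, 0.64 with the offset and block and −0.45 to 1.1 without 1 sample. Fgf2 was 0 with the offset and −0.3 to 0.77 without 1 sample. The cause of these changes was not tested.

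Among the pathway genes, the Gpc3 call was kept in 6 of 13 alternatives at FV100 (lost without senescent mouse 6 or any FV100 mouse) and in 5 of 13 at FV300 (lost without senescent mouse 5 or 6, or FV300 mouse 5 or 6). Dusp5 kept 7 of 13 at FV100 (lost without senescent mouse 6 or any FV100 mouse) and 9 of 13 at FV300 (senescent mouse 6, FV300 mouse 4 or 6). Cd44 kept 11 and 6 of 13 (at FV300 lost without senescent mouse 4 or 5, or FV300 mouse 5 or 6), Phlda1 10 and 12 of 13 (senescent mouse 4 or 6 at FV100, FV300 mouse 6 at FV300) and Braf 6 of 13 (senescent mouse 5 or 6, FV100 mouse 4 or 5). Against control, Fgf9 was lost without control mouse 4 or 5 or mouse 5 of either dose, and in senescent MEFs Hpn kept 5 of 15, lost with no filter, the block, the offset, the control libraries separate or 5(2) alone, and without mouse 4 of either group, control mouse 6 or senescent mouse 5. Fgf7 against control at both doses, Sulf2 and Spint2 in senescent against control, Gpc3 and Cd44 at both doses and Braf at FV100 lost their calls with the offset, with or without the block. Low counts limit Fgf5 and Fgf10, at 2 to 32 and 0 to 146 per sample.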
